A study of Homo sapiens with 9 samples.

Results

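The spliceosomal GTPase EFTUD2 and 9 other protein genes of the U5 small nuclear ribonucleoprotein (snRNP) and its U4/U6.U5 tri-snRNP were followed in Huh7 cells in which the histone lysine demethylase KDM4C was silenced. The 10 genes, EFTUD2, PRPF8, SNRNP200, PRPF6, SNRNP40, DDX23, CD2BP2, TXNL4A, PRPF3 and PRPF31, were taken by symbol from the 32906 genes listed for each library, and all 10 were above the minimum level for testing. EFTUD2 was picked for its opposite change with the siRNAs, that is from these same values, so its levels are a description and carry no test. The other 9 genes are its known partners in the complex, listed with earlier results of these data in view.

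The labels name the cells Huh7, an established human hepatocellular carcinoma line. The cells were transfected for 48 hours with Scramble, a control siRNA, or with 1 of 2 siRNAs against KDM4C, Si-KDM4C#1 and Si-KDM4C#2, and transcript levels were read by paired-end RNA sequencing in 3 libraries per group. All 9 libraries came from the same parental line with no other genetic change stated, and transfection was transient. The methods say in general that experiments were repeated independently, but neither they nor the labels say that the 3 libraries of a group were separate cultures, so p-values measure the spread between these libraries, which may be technical. Levels are FPKM (fragments per kilobase of exon, scaled to the mapped fragments of the library), and differences are on log2(FPKM + 1).

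KDM4C was at 4.88, 4.63 and 4.57 FPKM in the Scramble libraries. It was at 1.18, 1.10 and 1.13 FPKM in the Si-KDM4C#1 libraries and at 0.256, 0.349 and 0.256 FPKM in those of Si-KDM4C#2. The groups did not overlap, and every library labelled with a siRNA was below Scramble. Both siRNAs target KDM4C, so these levels do not tell which of them a library received. The depth was 14597503 to 18058557 fragments per library, and no library stood apart from its group. Of 12 hepatocyte markers, 8 were listed and 7 of these, including AFP, APOA1, SERPINA1 and HNF4A, never reached 1 FPKM, while CPS1 reached 302 FPKM. The summed hepatocyte markers ran from 272 to 303 FPKM in Scramble, 234 to 249 FPKM in the Si-KDM4C#1 libraries and 196 to 202 FPKM in those of Si-KDM4C#2, and the 3 fibroblast markers summed to between 40.5 and 43.5, 51.8 and 55.2, and 71.9 and 74.2 FPKM, with DCN never above 0.0999 FPKM. The 3 leukocyte and the 2 endothelial markers stayed under 1 FPKM, and of the 4 epithelial markers listed KRT8 and KRT18 were at 95.5 FPKM or more while KRT19 and CDH1 stayed under 1 FPKM. The summed epithelial markers were between 330 and 353 FPKM in Scramble, 290 and 309 after Si-KDM4C#1, and 240 and 254 after Si-KDM4C#2. KRT8 and KRT18 did not move together. KRT8 was at 195 to 205, 135 to 142 and 145 to 152 FPKM in these groups. KRT18 was at 131 to 148, 155 to 167 and 95.5 to 102 FPKM, so it was higher with Si-KDM4C#1 than in Scramble. Most defining hepatocyte markers being near 0 goes against the labelled cell type, and the identity of the line, called Huh7 here as labelled, was not tested. The part of these shifts in the results was not tested, and in such bulk libraries fewer cells and less RNA per cell cannot be told apart.

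The spliceosome removes introns from pre-mRNA. Its U5 snRNP holds the exons in place at the catalytic centre and joins the U4/U6 snRNP as the tri-snRNP, in which PRPF8 is the central scaffold, SNRNP200 the helicase that separates U4 from U6, and EFTUD2 the GTPase that sits against both. Variants in EFTUD2 underlie a craniofacial syndrome and variants in PRPF8, SNRNP200, PRPF6, PRPF3 and PRPF31 underlie retinitis pigmentosa.

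The stretch of KDM4C mRNA that matches each siRNA lies in coding sequence, and a stretch much like that of Si-KDM4C#2 occurs in EFTUD2, which is why it is shown first. Si-KDM4C#1 matches exon 14 of transcript KDM4C-202 (GRCh38 chromosome 9, 7013790 to 7013808, plus strand) and Si-KDM4C#2 matches exon 8 (chromosome 9, 6893107 to 6893125). Over all GENCODE release 29 transcripts of EFTUD2, the nearest stretch to the Si-KDM4C#1 match shared 13 of 19 bases, in a transcript with a retained intron, whereas the nearest stretch to the Si-KDM4C#2 match shared 16 of 19 bases. That stretch lies in the coding sequence of EFTUD2-202, exon 27, at chromosome 17, 44851727 to 44851745, minus strand. Its differences from the KDM4C bases are T3C, G4C and A6G, numbering the KDM4C stretch from 1 at its first base, so the last 13 bases are shared without a break. The stretches are given 5′ to 3′ as transcript bases, with capitals at each difference from KDM4C:
KDM4C, Si-KDM4C#2 match: gctggagaattcatgatca
EFTUD2, exon 27: gcCCgGgaattcatgatca
KDM4B, exon 9: gcCggGgaattcatgatca
SMG1, 3′ UTR: TAtAgTgaattcatgatca

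In the next lines the 13 shared bases are in capitals, with 30 bases of transcript on either side of the whole stretch. The KDM4C run begins in exon 7 and the EFTUD2 run ends in exon 28.
KDM4C: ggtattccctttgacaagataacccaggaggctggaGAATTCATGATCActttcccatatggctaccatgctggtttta
EFTUD2: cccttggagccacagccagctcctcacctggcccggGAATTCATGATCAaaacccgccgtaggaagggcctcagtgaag

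Among the 11110 genes tested that have a protein-coding transcript in GENCODE (1 transcript per gene, that with the longest coding sequence), 12 held a stretch with at least 16 of the 19 bases and 4 held the last 13 bases in full: KDM4C, EFTUD2, KDM4B (chromosome 19, 5082379 to 5082397, plus strand) and SMG1 (chromosome 16, 18808203 to 18808221, minus strand). KDM4B, a paralog of KDM4C, was at 6.67, 6.06 and 6.10 FPKM in Scramble, 6.42, 5.73 and 5.16 FPKM in the Si-KDM4C#1 libraries and 1.10, 1.17 and 1.26 FPKM in those of Si-KDM4C#2, and had a log2 difference of -1.74 with Si-KDM4C#2 (adjusted p = 1.43e-07) and of -0.11 with Si-KDM4C#1 (adjusted p = 0.240, limma-trend). SMG1, a kinase of nonsense-mediated decay, has its stretch in the 3′ UTR, was at 8.92, 8.69 and 7.85 FPKM in Scramble and 7.99, 7.51 and 8.11 FPKM in the Si-KDM4C#2 libraries, and had a log2 difference of -0.10 with Si-KDM4C#2 (adjusted p = 0.338, limma-trend). With Si-KDM4C#1 it was at 7.57, 7.57 and 6.06 FPKM and fell by 0.24 on the log2 scale (adjusted p = 0.0267, limma-trend). With Si-KDM4C#2, then, KDM4B passed the test and SMG1 did not. Genes with at least 16 of the 19 bases but without the full run differed in both directions with Si-KDM4C#2. Their log2 differences were -0.70 for ANGPT1, -0.56 for ACVR1, -0.53 for IRGQ, -0.28 for EBLN2, -0.13 for KDM4A and -0.03 for ITM2B. They were 0.46 for HMMR, 0.43 for FYCO1 and 0.16 for DIMT1. No p-values are given for these genes. Levels were low for ANGPT1 (1.93 FPKM in Scramble, 0.805 FPKM with Si-KDM4C#2) and EBLN2 (2.21 and 1.64 FPKM). At such levels the 1 added to FPKM makes log2 differences smaller. For the Si-KDM4C#1 match, 28 genes held at least 16 bases and 7 the last 13, KDM4C included. The others of these 7 differed in both directions with Si-KDM4C#1. Their log2 differences were -0.84 for SERPING1, -0.68 for CCDC84, -0.36 for PPM1L, -0.05 for ATP7B, 0.16 for CPSF7 and 0.58 for XPC. With Si-KDM4C#2 these differences were -0.26, -0.62, -0.31, -0.45, 0.37 and 0.42 in the same order. Whether Si-KDM4C#2 acts on EFTUD2 was not tested.

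**Figure D1:**
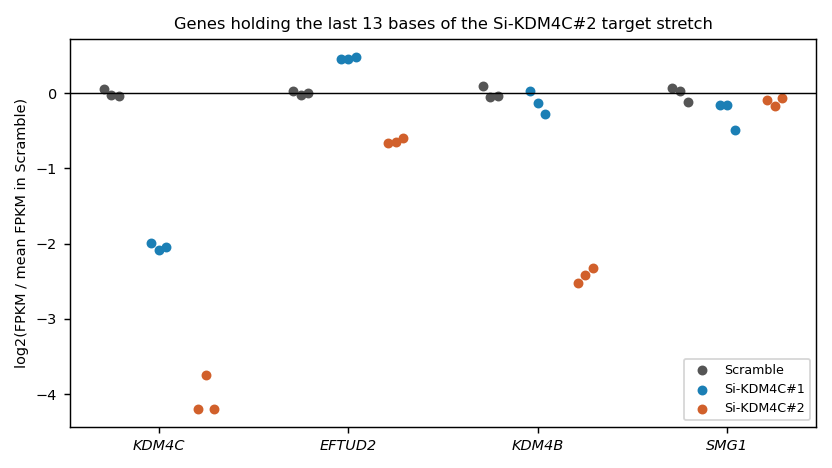
Level of the 4 genes that hold the last 13 bases of the Si-KDM4C#2 match, as log2 of FPKM over the mean of the 3 Scramble libraries (vertical axis), 1 point per library and coloured by group. With Si-KDM4C#2 the points of KDM4C, KDM4B and EFTUD2 lie below all Scramble points, and those of EFTUD2 with Si-KDM4C#1 lie above them.

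The shorter match to the seed of a guide strand (its bases 2 to 8) was common. For Si-KDM4C#2 this is CATGATC on the transcript strand, which occurred in the coding transcript of 18.7% of the 11110 genes and of 4 of the 10 genes here (EFTUD2, PRPF8, SNRNP200 and PRPF6), in each in coding sequence. For Si-KDM4C#1 it is ATGAAGA, which occurred in 46.8% of genes and in 9 of the 10, with SNRNP40 the exception. Only the transcript strand was searched, and such a match is a description of letters.

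EFTUD2 was read at 30.2, 29.2 and 29.6 FPKM in Scramble, 40.4, 40.6 and 41.3 FPKM in the Si-KDM4C#1 libraries and 18.7, 18.9 and 19.5 FPKM in those of Si-KDM4C#2. The groups were separated from each other without overlap, Si-KDM4C#1 highest and Si-KDM4C#2 lowest. The means were 29.6 ± 0.526, 40.8 ± 0.457 and 19.1 ± 0.404 FPKM (SD, n = 3), and the log2 differences from Scramble were 0.45 and -0.61 (SE 0.033). Between the siRNAs the log2 difference was -1.06, with 298 of the 14363 genes tested lower and 14064 higher. These are the values it was chosen by. The sums behind them were 14797, 20615 and 9522 fragments per group, so counting error was small beside the difference. Quantile normalisation lowered the first log2 difference to 0.25.

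**Figure D2:**
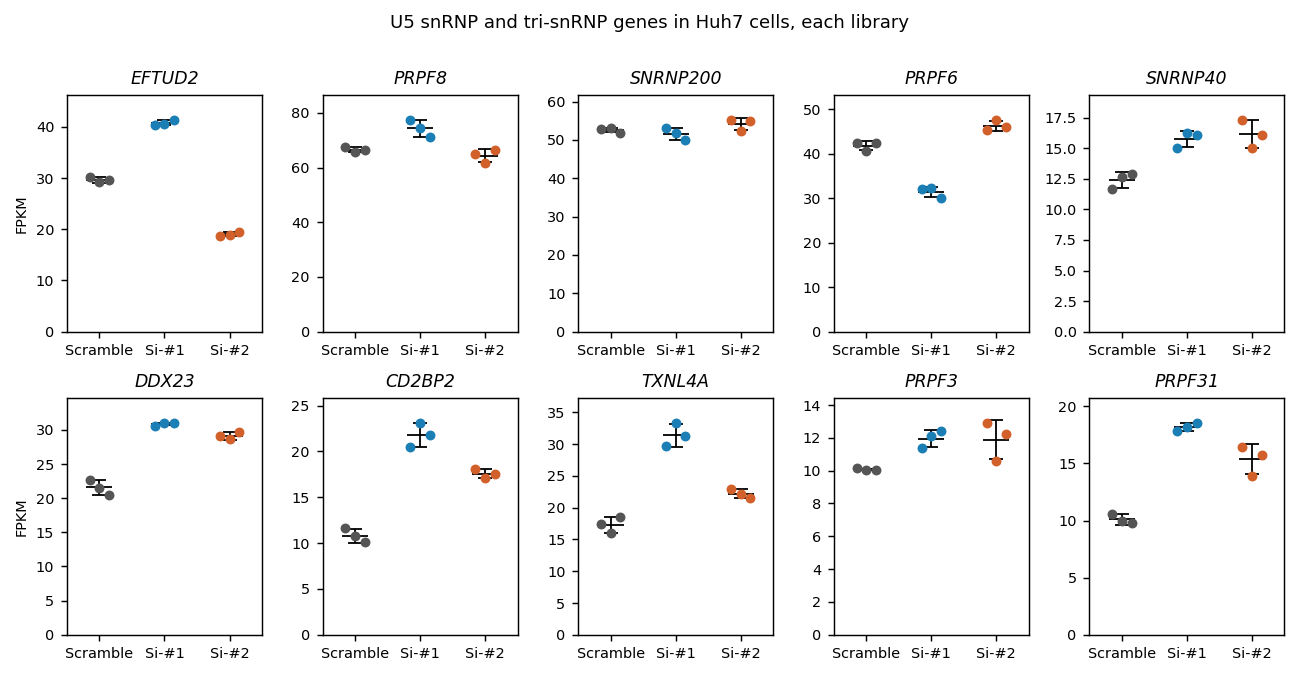
FPKM (vertical axis, from 0) of the 10 genes in each library, with the mean and SD of the 3 libraries of each group as bars. EFTUD2 was highest with Si-KDM4C#1 and lowest with Si-KDM4C#2, and PRPF6 showed the opposite order of these groups. SNRNP40, DDX23, CD2BP2, TXNL4A, PRPF3 and PRPF31 were above Scramble with either siRNA.

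Beside EFTUD2 at the centre of U5, PRPF8 and SNRNP200 varied far less. PRPF8 was at 67.5, 65.7 and 66.4 FPKM in Scramble, 77.3, 74.5 and 71.0 FPKM in the Si-KDM4C#1 libraries and 65.1, 61.7 and 66.4 FPKM in those of Si-KDM4C#2. The Si-KDM4C#1 libraries were above all others, and those of Si-KDM4C#2 overlapped Scramble. It rose with Si-KDM4C#1 by 0.16 on the log2 scale (SE 0.041, adjusted p = 0.00779, limma-trend, with p-values adjusted over all genes tested by the Benjamini-Hochberg method), a call that quantile normalisation ended and turned (-0.04, adjusted p = 0.488). With Si-KDM4C#2 the log2 difference was -0.05 (95% confidence interval -0.14 to 0.05, adjusted p = 0.350), and 4 of the alternative scalings or fits put it past the threshold as lower.

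SNRNP200 was at 52.8, 53.1 and 52.0 FPKM in Scramble, 53.1, 51.8 and 50.01 FPKM in the Si-KDM4C#1 libraries and 55.2, 52.3 and 55.1 FPKM in those of Si-KDM4C#2. The ranges of the groups overlapped. Its log2 difference was -0.03 with Si-KDM4C#1 (95% confidence interval -0.11 to 0.05, adjusted p = 0.522) and 0.04 with Si-KDM4C#2 (-0.04 to 0.12, adjusted p = 0.353, limma-trend). After adjustment for GC content or quantile normalisation it passed the threshold as lower with Si-KDM4C#1, at -0.10 and -0.21.

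PRPF6, which bridges U5 and U4/U6 in the tri-snRNP, moved in the reverse order to EFTUD2. It was at 42.3, 40.7 and 42.4 FPKM in Scramble, 32.04, 32.2 and 30.1 FPKM in the Si-KDM4C#1 libraries and 45.4, 47.5 and 45.9 FPKM in those of Si-KDM4C#2, and no groups overlapped. It fell with Si-KDM4C#1 (log2 difference -0.40, SE 0.038, adjusted p = 1.08e-05) and rose with Si-KDM4C#2 (0.14, SE 0.038, adjusted p = 0.00952, limma-trend). The second call was lost on recovered fragments (0.08), with median-ratio scaling (0.06) and with quantile normalisation (0.05), and turned to -0.04 after adjustment for GC content. Between the siRNAs PRPF6 was higher with Si-KDM4C#2 by 0.54 (SE 0.038, adjusted p = 1.76e-06, limma-trend).

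**Figure D3:**
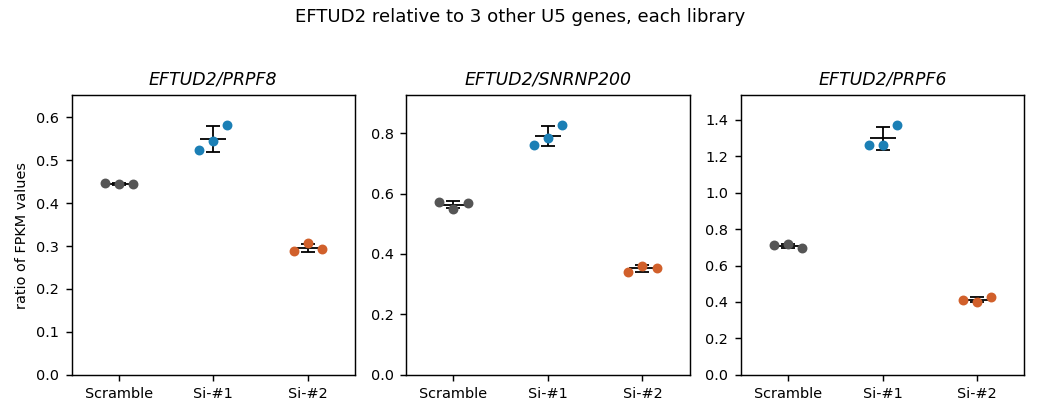
Ratio of the FPKM of EFTUD2 to that of PRPF8, SNRNP200 or PRPF6 (vertical axes, from 0) in each library, with mean and SD of the 3 libraries per group. Every ratio was highest with Si-KDM4C#1 and lowest with Si-KDM4C#2, with no overlap of groups.

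Within a library, a ratio of 2 genes does not depend on the factor by which the whole library was scaled. EFTUD2 relative to PRPF8 was 0.445 ± 0.00203 in Scramble, 0.550 ± 0.0296 in the Si-KDM4C#1 libraries and 0.296 ± 0.00965 in those of Si-KDM4C#2 (SD, n = 3). Relative to SNRNP200 it was 0.563 ± 0.0125, 0.791 ± 0.0327 and 0.352 ± 0.0111 in the same order. Relative to PRPF6 it was 0.709 ± 0.0107, 1.298 ± 0.0625 and 0.412 ± 0.0134. Against the other 6 partners the order differed. With Si-KDM4C#1 the ratio lay above Scramble for PRPF3, overlapped it for SNRNP40 and DDX23 (1.32, 1.31 and 1.33 against 1.33, 1.36 and 1.44), and lay below it for CD2BP2, TXNL4A and PRPF31. With Si-KDM4C#2 all 9 ratios lay below Scramble. All of these ratios contain the values by which EFTUD2 was chosen and are a description.

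SNRNP40 and DDX23 are a WD40-repeat protein of U5 and the helicase that U6 needs to replace U1 at the 5′ splice site. SNRNP40 was at 11.7, 12.7 and 12.9 FPKM in Scramble, 15.02, 16.3 and 16.1 FPKM in the Si-KDM4C#1 libraries and 17.3, 15.1 and 16.1 FPKM in those of Si-KDM4C#2. It rose by 0.32 (adjusted p = 0.000948) and 0.35 (adjusted p = 0.000666, limma-trend; SE 0.060 for both), and the ranges of the siRNA groups overlapped. DDX23 was at 22.7, 21.5 and 20.5 FPKM in Scramble, 30.6, 31.0 and 31.0 FPKM in the Si-KDM4C#1 libraries and 29.1, 28.6 and 29.8 FPKM in those of Si-KDM4C#2. It rose by 0.50 (adjusted p = 3.74e-06) and 0.42 (adjusted p = 1.86e-05, limma-trend; SE 0.041 for both). The DDX23 libraries of Si-KDM4C#2 were all below those of Si-KDM4C#1, with a log2 difference of -0.08 (95% confidence interval -0.17 to 0.01, adjusted p = 0.118, limma-trend) that passed the threshold under 3 alternatives.

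CD2BP2 and TXNL4A had the largest increases with Si-KDM4C#1 among the 9 genes. CD2BP2, a protein of free U5 snRNP that leaves when the tri-snRNP forms, was at 11.6, 10.7 and 10.1 FPKM in Scramble, 20.4, 23.1 and 21.8 FPKM in the Si-KDM4C#1 libraries and 18.1, 17.1 and 17.5 FPKM in those of Si-KDM4C#2. All libraries of a siRNA were above all Scramble libraries, and Si-KDM4C#1 was above Si-KDM4C#2. It rose by 0.95 (adjusted p = 6.28e-07) and 0.66 (adjusted p = 1.14e-05, limma-trend; SE 0.059 for both). The ratio of its mean FPKM with Si-KDM4C#1 to that in Scramble was 2.01, just under a fold of 2 on the log2(FPKM + 1) scale.

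TXNL4A, the small thioredoxin-like protein that CD2BP2 and PRPF8 contact, was at 17.4, 15.95 and 18.5 FPKM in Scramble, 29.7, 33.3 and 31.3 FPKM in the Si-KDM4C#1 libraries and 22.9, 22.2 and 21.6 FPKM in those of Si-KDM4C#2. The groups did not overlap. It rose by 0.82 (adjusted p = 1.69e-06) and 0.34 (adjusted p = 0.000827, limma-trend; SE 0.060 for both). HSBP1L1 overlaps TXNL4A on the opposite strand, and the sources used here do not say whether counting used strand, so a share of the fragments could belong to either gene.

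PRPF3 and PRPF31 belong to the U4/U6 side of the tri-snRNP, which PRPF31 ties to U5 through PRPF6. PRPF3 was at 10.1, 10.1 and 10.1 FPKM in Scramble, 11.4, 12.1 and 12.4 FPKM in the Si-KDM4C#1 libraries and 12.9, 10.6 and 12.2 FPKM in those of Si-KDM4C#2. It rose by 0.22 (adjusted p = 0.0128) and 0.21 (adjusted p = 0.0181, limma-trend; SE 0.065 for both), of which the second was the smallest called with Si-KDM4C#2 apart from PRPF6. The second call was lost without Si-KDM4C#2 replicate 1 (adjusted p = 0.0680) and without Si-KDM4C#2 replicate 3 (adjusted p = 0.0600), and with median-ratio scaling or quantile normalisation. PRPF31 was at 10.6, 9.93 and 9.76 FPKM in Scramble, 17.8, 18.2 and 18.5 FPKM in the Si-KDM4C#1 libraries and 16.4, 13.9 and 15.7 FPKM in those of Si-KDM4C#2. Its 3 groups did not overlap, and it rose by 0.79 (adjusted p = 2.15e-06) and 0.56 (adjusted p = 3.31e-05, limma-trend; SE 0.060 for both). TFPT and AC245052.4, on the opposite strand, overlap PRPF31. AC130343.2 overlaps PRPF8 on the opposite strand, and AC114495.2 overlaps SNRNP40 on the same strand.

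**Figure D4:**
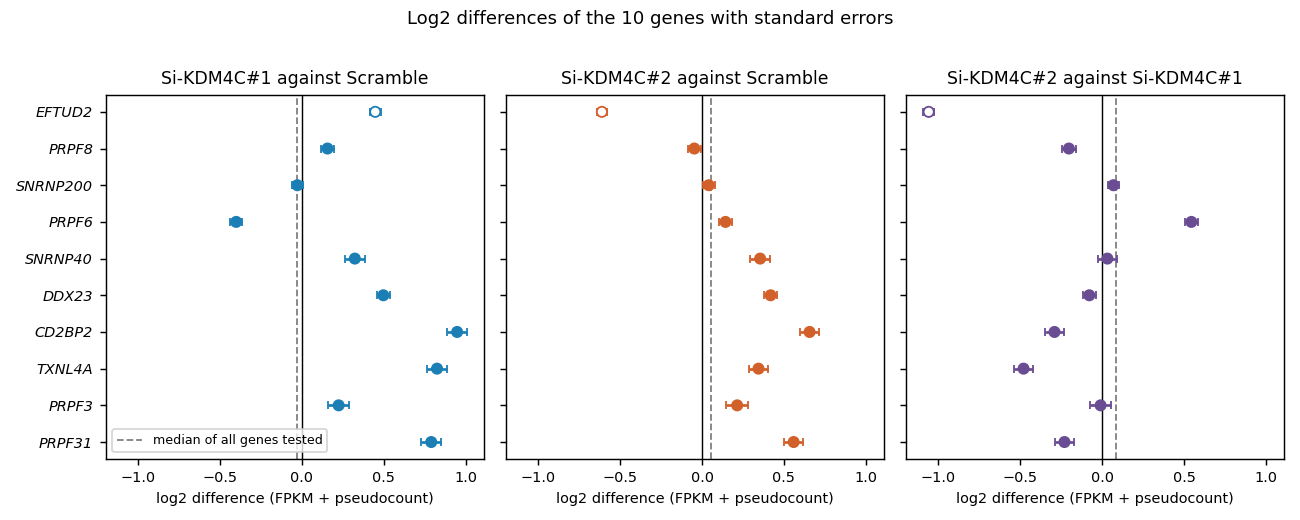
Log2 difference (horizontal axis, on FPKM + 1) of the 10 genes in the 3 comparisons, with bars of 1 standard error. The dashed line is the median of the 14363 genes tested, and EFTUD2 is drawn open because it was chosen by these values. PRPF6 lies opposite to EFTUD2 in every panel (its small value with Si-KDM4C#2 turned after GC adjustment), and SNRNP200 lies near 0.

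With Si-KDM4C#1, 7 of the 9 genes other than EFTUD2 rose and PRPF6 fell, where 31.7% of all 14363 genes passed as higher and 33.9% as lower at FDR < 0.05. With Si-KDM4C#2, the same count of 7 rose and none fell, where 34.4% of genes were higher and 25% lower. None of the 9 genes was past a fold of 2 with either siRNA, against 8.87% and 4.89% of genes in either direction. This count depends on the processing. Under the alternatives other than leaving out a library, the log2 difference of CD2BP2 with Si-KDM4C#1 ran from 0.80 to 1.07. The median log2 difference of the 9 was 0.32 and 0.34, against -0.03 and 0.06 over all genes tested. Both comparisons share the Scramble libraries, so the counts are not independent of each other.

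Between the siRNAs, 4 of the 9 genes were lower with the second than with the first: PRPF8 by a log2 difference of -0.20 (adjusted p = 0.00188), CD2BP2 by -0.29 (adjusted p = 0.00188), TXNL4A by -0.48 (adjusted p = 8.19e-05) and PRPF31 by -0.23 (adjusted p = 0.00730, limma-trend). PRPF6 alone was higher, and 4 genes did not pass the test. Of all genes, 26.5% were lower and 35.9% higher, and 6.91% were past a fold of 2, a limit that none of the 9 reached. For SNRNP40 and PRPF3 the difference between the siRNAs was 0.03 (95% confidence interval -0.10 to 0.17) and -0.01 (-0.16 to 0.14).

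Summed over the 10 genes, the level was 273 ± 3.74 FPKM in Scramble, 328 ± 4.78 FPKM after Si-KDM4C#1 and 296 ± 7.28 FPKM after Si-KDM4C#2 (SD, n = 3). In Scramble the order of levels per length was PRPF8, SNRNP200, PRPF6, EFTUD2, DDX23, TXNL4A, SNRNP40, CD2BP2, PRPF31 and PRPF3, and among neighbours in it CD2BP2 overlapped PRPF31 and PRPF31 overlapped PRPF3. The rank of EFTUD2 was 4 in Scramble, 3 after Si-KDM4C#1 and 6 after Si-KDM4C#2. The deposited values divide by all annotated exons of a gene, which for EFTUD2 are 10375 bases against 4548 in EFTUD2-202. Per kilobase of the longest coding transcript, in fragments scaled to the library total as in FPKM, EFTUD2 was at 67.6 in Scramble, 93.1 after Si-KDM4C#1 and 43.5 after Si-KDM4C#2, and its ranks were 3, 2 and 5.

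Beyond U5, 87 of the 88 other spliceosome symbols were listed, in lists of the complexes they belong to. NHP2L1, the 1 not listed, is the older symbol of SNU13, which was. With Si-KDM4C#1, 50 of these 87 genes rose, 26 fell and 11 did not pass, with a median log2 difference of 0.19, beside all-gene shares of 31.7% up and 33.9% down. With Si-KDM4C#2, 40 rose, 19 fell and 28 did not pass, with a median of 0.10, where 34.4% of all genes were higher and 25% lower. Between the siRNAs 31 of the 87 were higher and 32 lower with Si-KDM4C#2, where 35.9% of all genes were higher and 26.5% lower. Past a fold of 2 were 8, 7 and 5 of the 87 genes in these comparisons, where the shares over all genes were 8.87%, 4.89% and 6.91%.

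**Figure D5:**
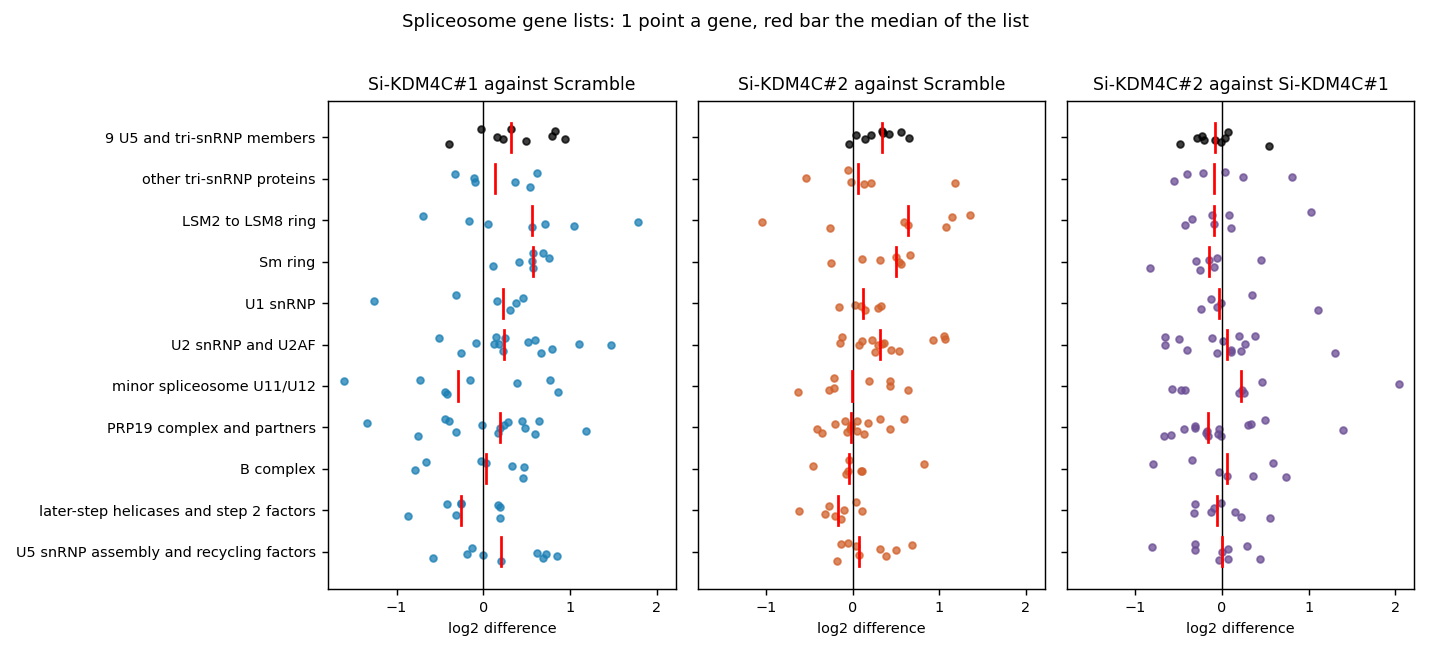
Log2 difference (horizontal axis) of each gene of the spliceosome lists in the 3 comparisons, with 1 point per gene and the list's median in red, and with the 9 partners of EFTUD2 in black at the top. All 7 Sm genes lie above 0 with Si-KDM4C#1 (under quantile normalisation SNRPD1 would lie at -0.00345), and ZCRB1, at -1.61 with Si-KDM4C#1 and 2.04 between the siRNAs, and LSM7, at 1.78 with Si-KDM4C#1, lie farthest out.

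The Sm ring, the shared protein ring of U1, U2, U4 and U5, rose in 7 of 7 genes with Si-KDM4C#1 (median 0.57). With Si-KDM4C#2 it rose in 5 of 7 (median 0.50). Over all genes tested 31.7% and 34.4% were higher, with medians of -0.03 and 0.06. With Si-KDM4C#2, SNRPE fell by 0.25 on the log2 scale (adjusted p = 0.00279, limma-trend) and SNRPF rose by 0.66. The Si-KDM4C#1 count was 6 of 7 with quantile normalisation (SNRPD1 at -0.00345), median-ratio scaling, no filter on low genes, the fit of 6 libraries and the replicate block, SNRPD1 having an adjusted p of 0.0424 in limma-trend. The LSM2 to LSM8 ring of U6 moved in both directions, with more of its 7 genes rising than falling. With Si-KDM4C#1, 4 rose and 2 fell (median 0.56). With Si-KDM4C#2, 5 rose and 2 fell (median 0.64). Beside the shares above, 33.9% and 25% of all genes were lower. Past a fold of 2 were 2 and 4 of the 7, against 8.87% and 4.89% of all genes. LSM7 went from 7.999 FPKM in Scramble to 29.8 and 21.99 FPKM, while LSM3 went from 15.99 to 9.42 and 7.20 FPKM, and both passed a fold of 2 with Si-KDM4C#2. Among the other tri-snRNP proteins, SART1, which is needed for tri-snRNP recruitment, rose with Si-KDM4C#2 from 5.60 to 13.97 FPKM (log2 difference 1.18, adjusted p = 2.11e-07, limma-trend). SNRNP27 fell with both siRNAs (-0.33 and -0.54). Its call with Si-KDM4C#1 was lost after GC adjustment, where 0 genes of this list were called lower and USP39 was lowest at -0.08. PPIH rose by 0.62 with Si-KDM4C#1, and SNU13 differed by -0.56 between Si-KDM4C#2 and Si-KDM4C#1.

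Other complexes held both directions, and their counts stand against the all-gene shares, for Si-KDM4C#1 31.7% up and 33.9% down, for Si-KDM4C#2 34.4% up and 25% down. Of the 14 genes of U2 and U2AF, 10 rose with each siRNA, led by PHF5A, a component of SF3B (12.8 FPKM in Scramble, 36.9 and 27.5 FPKM with the siRNAs), while SF3B1, the large SF3B subunit, fell by 0.51 with Si-KDM4C#1 on the log2 scale. Under quantile normalisation 6 of these 14 genes rose and 3 fell with Si-KDM4C#1. SF3B2 was higher by 1.302 in the comparison of Si-KDM4C#2 with Si-KDM4C#1. Of the 15 genes of the PRP19 complex and its partners, 9 rose and 5 fell with Si-KDM4C#1, from PRPF19, the ubiquitin ligase of the complex (46.8 to 108 FPKM), to CRNKL1 (7.60 to 2.41 FPKM), and 5 rose and 3 fell with Si-KDM4C#2, a balance that turned to 3 and 5 with median-ratio scaling and to 3 and 4 with voom, GC adjustment or quantile normalisation. Of the 6 U1 genes, 3 rose and 2 fell with Si-KDM4C#1, with LUC7L3 falling from 58.5 to 23.8 FPKM and SNRPC rising from 93.7 to 129 FPKM. With Si-KDM4C#2, 3 of the U1 genes rose and 1 fell, and after GC adjustment 1 rose and 0 fell.

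The counts of the remaining lists are read against the same all-gene shares. Of the 8 minor spliceosome genes, 3 rose and 4 fell with Si-KDM4C#1, where ZCRB1 went from 27.6 to 8.36 FPKM and SNRNP25 from 11.2 to 21.1 FPKM, and 3 rose and 3 fell with Si-KDM4C#2 (3 and 1 with no filter on low genes). Of the 8 later-step helicases and step 2 factors, 3 rose and 5 fell with Si-KDM4C#1, and 0 rose and 4 fell with Si-KDM4C#2, with DHX15, the helicase of spliceosome disassembly, going from 42.4 to 27.3 FPKM. After GC adjustment these counts were 1 and 3, and 1 and 7. Of the 7 B complex genes, 3 rose and 2 fell with Si-KDM4C#1, IK falling by 0.79 on the log2 scale, and 2 rose and 1 fell with Si-KDM4C#2, which turned to 1 and 4 with median-ratio scaling or quantile normalisation and to 1 and 2 with voom. Of the 9 U5 assembly and recycling factors, 5 rose and 2 fell with Si-KDM4C#1 and 4 rose and 2 fell with Si-KDM4C#2. RUVBL2, an AAA+ ATPase of the chaperone complexes that assemble U5, rose with Si-KDM4C#1 from 23.2 to 42.6 FPKM and was at 24.0 FPKM with Si-KDM4C#2.

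Paralogs of the U5 proteins did not follow their relatives in order. EEF2, the elongation factor that EFTUD2 resembles, was at 603 FPKM in Scramble and rose to 1045 FPKM in the Si-KDM4C#1 libraries and 770 FPKM in those of Si-KDM4C#2 (log2 differences 0.79 and 0.35). EFL1, another GTPase of that family, had a log2 difference of -0.00468 with Si-KDM4C#1 (adjusted p = 0.956) and fell by 0.35 with Si-KDM4C#2 (adjusted p = 0.00133, limma-trend). TXNL4B, related to TXNL4A, rose by 0.74 with Si-KDM4C#1 (adjusted p = 0.000107) and fell by 0.34 with Si-KDM4C#2 (adjusted p = 0.0133, limma-trend). ASCC3, a helicase related to SNRNP200, fell with both siRNAs (-0.74 and -1.33).

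Over the 9 libraries, the genes whose log2(FPKM + 1) was most like that of EFTUD2 were ZDHHC5 (Pearson r = 0.999), NUDT19 and KHSRP (both 0.998), FDFT1 (0.998) and MAL2 (0.998), and those most unlike it were HMGB2 (-0.998), KIF11 (-0.998) and AMD1 (-0.997). ZDHHC5 was at 20.9, 28.1 and 13.9 FPKM in Scramble, Si-KDM4C#1 and Si-KDM4C#2, and HMGB2 at 46.1, 24.9 and 113 FPKM. With 3 groups of near-equal libraries such values describe the order of 3 means, and 824 of 14362 genes had r over 0.9 and 1157 under -0.9. Among the partners r was 0.844 for PRPF8, -0.928 for PRPF6, -0.694 for SNRNP200 and between -0.161 and 0.496 for the others. The genes past a fold of 2 upward with Si-KDM4C#1 and downward with Si-KDM4C#2 were GDF15, CDKN1A, MAL2 and RAB5C, and those past it the other way were PPP3CB, AP000924.1 and C9orf40. By the size of the difference between the siRNAs, GDF15 (log2 difference -3.75) stood at rank 1 and EFTUD2 at rank 823.

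EFTUD2 lies on chromosome 17 from 44849943 to 44899662 (GRCh38, minus strand), and its listed neighbours did not share its pattern as a block. HIGD1B, on the opposite strand, shares 538 bases with EFTUD2, and was at 0.834, 2.05 and 0.829 FPKM in Scramble, Si-KDM4C#1 and Si-KDM4C#2. It rose by 0.74 with Si-KDM4C#1 (adjusted p = 0.00811) and had a log2 difference of -0.01 with Si-KDM4C#2 (adjusted p = 0.959, limma-trend), and since strand use in counting is not given its fragments cannot be told from those of EFTUD2 where they overlap. GJC1 fell with both siRNAs (-0.22 and -0.43), and DCAKD rose with both (0.61 and 0.92). KIF18B and C1QL1 fell with Si-KDM4C#1 (-0.36 and -0.37) and rose with Si-KDM4C#2 (0.19 and 0.50), and NMT1 rose by 0.16 with Si-KDM4C#1. GFAP, RN7SL405P, AC005180.1 and AC005180.2 were below the minimum level for testing.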

How the data were processed

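RNA was read in 9 Huh7 libraries, 3 per siRNA. The authors deposited FPKM values, 1 list of genes per library, from libraries made with the NEBNext Ultra kit. The submitters' processing notes name GRCh38, FastQC 0.11.5, HISAT2 2.1.0, StringTie 1.3.3b, featureCounts and DESeq 1.28.0, with no role, order or strand setting. Multiplied by exon length (GENCODE release 29) and a fitted total per library, 97.5% to 97.7% of values above 0 came out whole (within 0.05), which gave the depths; intervals on these cover counting error only. The 14363 genes whose mean reached 1 FPKM in any group were compared on log2(FPKM + 1) with limma-trend (limma 3.58.1, R 4.3.3), all 9 libraries in 1 fit without covariates, and Benjamini-Hochberg adjustment over all of them; calls are at FDR < 0.05. The fit was tested on simulated data. Members and gene lists were chosen with earlier results of these data known. The text names the 10 members, KDM4C, paralogs, neighbours of EFTUD2, and genes past a fold of 2 in opposite directions. It also names the 5 genes most and 3 least correlated with EFTUD2. In each list, called genes with the largest changes are named (not all are printed). KDM4B, SMG1 and the other genes with at least 16 bases of the Si-KDM4C#2 match were named after their values were seen. So were the genes with the last 13 bases of the Si-KDM4C#1 match. siRNA matches are positions at which the sequences in the study's methods occur in KDM4C-202; nearest stretches were sought without gaps. Alternatives were another pseudocount, filters, scalings, fits limited to 6 libraries, a replicate block, each library left out, and, chosen after seeing the data, GC adjustment and limma voom on recovered fragments. Python 3.11.15, numpy 2.4.6, pandas 2.3.3 and matplotlib 3.10.9 were used.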

Additional observations from a re-analysis of the deposited data

Results flagged for a closer look

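For 5 of the 9 genes other than EFTUD2 the effect differed between the siRNAs by the limma-trend test of the difference itself. Of all 14363 genes tested, 35.9% were higher and 26.5% lower with Si-KDM4C#2 than with Si-KDM4C#1. Such a difference was therefore common and is not particular to these genes. With Si-KDM4C#2 relative to Si-KDM4C#1 the log2 difference was -0.20 for PRPF8, 0.54 for PRPF6, -0.29 for CD2BP2, -0.48 for TXNL4A and -0.23 for PRPF31. In each of these genes the 3 libraries of one siRNA lay wholly above the 3 of the other. The same held for DDX23, which did not pass the test, and the share of all genes so separated is not given here.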

How the results depend on the processing

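Leaving out 1 library at a time kept the direction and call of 241 of 243 member values, the exceptions being PRPF3 with Si-KDM4C#2, and the log2 difference of EFTUD2 stayed between 0.44 and 0.46 with Si-KDM4C#1, -0.63 and -0.60 with Si-KDM4C#2 and -1.08 and -1.05 between them. Under the other alternatives 226 of 243 member values were alike in direction and call, 10 passed the threshold anew, 5 lost it and 2 turned. The log2 difference of EFTUD2 with Si-KDM4C#1 was 0.42 after GC adjustment, 0.53 with voom and 0.25 with quantile normalisation. With Si-KDM4C#2 it was -0.69 after GC adjustment or median-ratio scaling, -0.70 with voom and -0.74 with quantile normalisation. Between the siRNAs it was -1.10, -1.23, -1.12 and -0.99 under GC adjustment, voom, median-ratio scaling and quantile normalisation, and -1.09 with a pseudocount of 0.1. The partners called lower with Si-KDM4C#1 became 2 after GC adjustment or quantile normalisation, and those with Si-KDM4C#2 became 1 (PRPF8) under GC adjustment, voom, median-ratio scaling and quantile normalisation. Partners higher with Si-KDM4C#2 than with Si-KDM4C#1 became 2 with quantile normalisation, and other spliceosome genes so called fell to 18 with voom. PRPF8 with Si-KDM4C#1 turned to -0.0416 with quantile normalisation and PRPF6 with Si-KDM4C#2 to -0.0395 after GC adjustment. The cause of these shifts was not tested. Same-numbered libraries did not deviate together (mean r = 0.016 over 9 pairs, -0.008 over 18 others), and with the replicate block 7 partners rose and 1 fell with Si-KDM4C#1, as without it, while the Sm genes called fell from 7 to 6. Depth did not limit the members, each with over 3 fragments in every library.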
